A study of Mus musculus with 4 samples.

Results

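Fibroblasts of the mouse carotid artery 7 days after wire injury were described from a single-cell library in which leukocytes prevailed. Barcodes of the day 7 library were kept at 500 or more genes, 1000 or more unique molecular identifiers (UMIs) and at most 10% mitochondrial UMIs. A kept barcode was taken as a fibroblast when it carried at most 1 UMI of Ptprc, which encodes the pan-leukocyte antigen CD45. In addition, Dcn, Lum, Dpt, Pdgfra, Serpinf1 and Mfap5 had to make up at least 0.1% of its UMIs together, and the smooth muscle genes Myh11, Acta2, Tagln and Myl9 under 0.5%. By this rule 225 fibroblasts were found among 2018 kept barcodes of day 7, or 11.1% (95% exact binomial interval 9.81 to 12.6). The library held 3001 barcodes and the series 6161.

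The study followed the healing of the vessel wall over time, in C57BL/6 mice aged 11 weeks before injury. Carotid arteries were sampled without injury (day 0) and on days 3, 7 and 14 after a wire had been passed through the vessel, which damages its lining and wall. Per the methods, the mice were male, several carotids were pooled per time point, thrombosed vessels were left out, the tissue was digested enzymatically, and dead cells were removed before droplet-based 3′ RNA-sequencing. Each day was 1 library, so day and library cannot be told apart, no difference was tested, and all intervals below cover counting error only. UMIs of a pooled library also do not tell which animal a cell came from.

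Fibroblasts of large arteries reside mainly in the adventitia, the outer coat of the vessel, where they secrete and maintain collagen, elastic fibres and proteoglycans. After injury they can be activated: they divide, release chemokines for leukocytes and lay down new matrix, and part of them may take up contractile genes. A quiescent adventitial population is known for Pi16, Cd34, Ly6a and Clec3b, while Postn, Cthrc1 and Tnc are known as genes of activated, matrix-building fibroblasts.

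The 225 fibroblasts had a median of 12129 UMIs and 3347 genes per cell, and their depth was very uneven. UMI counts ran from 1001 to 151148, and 85 cells had under 3000. The 100 cells of at least 20000 UMIs held 90.2% of all fibroblast UMIs, so that summed levels describe those cells foremost. Together the fibroblasts held 5029115 UMIs, or 20.0% of the UMIs in kept day 7 barcodes. The remaining kept barcodes comprised 1582 leukocytes (Ptprc at 2 or more UMIs), 32 contractile cells (the smooth muscle genes at 0.5% or more, Ptprc at most 1) and 179 barcodes in neither class.

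The 6 genes of the rule were present as their choice required, with a median of 0.999% of UMIs per fibroblast (quartiles 0.389 and 1.61) against 0.0108% per leukocyte. Marker lists of other cell types, whose genes had not entered the rule, were then described. They are no independent check of the label. The limit on Ptprc lowers the leukocyte list in part, since 1582 of the 1793 other kept cells were classed as leukocytes by Ptprc. The limit on smooth muscle genes likewise bears on the pericyte list. Of 16 leukocyte markers 15 had at least 1 UMI (Cd3e was at 0), and their summed level was 406 CPM (UMIs of a gene scaled to a sum of 1000000 per group) against 25241 CPM in the other kept cells. This leukocyte RNA was concentrated in a minority of shallow cells. In 51 of the barcodes taken as fibroblasts (22.7%) the leukocyte list reached 0.5% of UMIs. Their median was 1.33% for that list and 0.386% for the 6 genes of the rule. Col1a1 was at 3382 CPM in them and at 18160 CPM in the other 174. They are counted as fibroblasts below only because they met the rule. These 51 had a median of 1152 UMIs, with Lyz2 and Cd74, both on the list that set them apart, at 3238 and 5088 CPM. In the other 174 the median was 28273 UMIs, with Lyz2 at 31.9 CPM and Cd74 at 51.4 CPM. Of the fibroblasts at days 0, 3 and 14, none, 2 and 5 cells reached that limit. The 51 cells of day 7 held 69187 of the 5029115 fibroblast UMIs. With the 51 cells left out, the fibroblast share was 8.62%, and neither the medians of the fibrillar, matricellular, adventitial and inflammatory lists nor the counts of genes moved beyond the limits set for them (the counting interval of a median, 1.5 times for a count).

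Among the other marker lists, pericyte markers stood at 616 CPM in the day 7 fibroblasts, against 764 CPM in the contractile cells and 64.5 CPM in the other kept cells. Higd1b was at 0 and Rgs5, which is also found in modulated smooth muscle cells, was at 286 CPM. All 8 endothelial markers had UMIs, with a sum of 62.2 CPM. Schwann cell markers summed to 30.2 CPM with 4 of 6 detected, erythroid markers to 15.9 CPM, epithelial markers to 8.35 CPM with Krt8 at 0, and skeletal muscle markers to 5.17 CPM with Ckm and Myh4 at 0. Of 5 adipocyte markers only Car3 was detected (0.199 CPM), and the 4 mesothelial markers were all at 0. A doublet score removed 3 of the 225 cells at a fixed rate of 72 per 3001 barcodes, and the median score was 0.0608 in fibroblasts and 0.0444 in the other cells.

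The libraries shared cell barcodes. Between days 7 and 14 there were 64 barcodes in common, of which 62 were deeper at day 7, by a median of 89.2-fold. Between days 3 and 7 a single barcode was shared, and between days 0 and 3 there were 152, with a median ratio of 22.8. In all, 29 of the day 7 fibroblasts carried a shared barcode and were among the deeper cells, with a median of 59668 UMIs against 6201 in the other 196. Only 1 of the 29 was the shallower copy. With the shallower copy of each pair removed, none of these medians and counts moved beyond the limits either. With every shared barcode removed, some did, and those values are given beside the result or in the closing section.

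**Figure D1:**
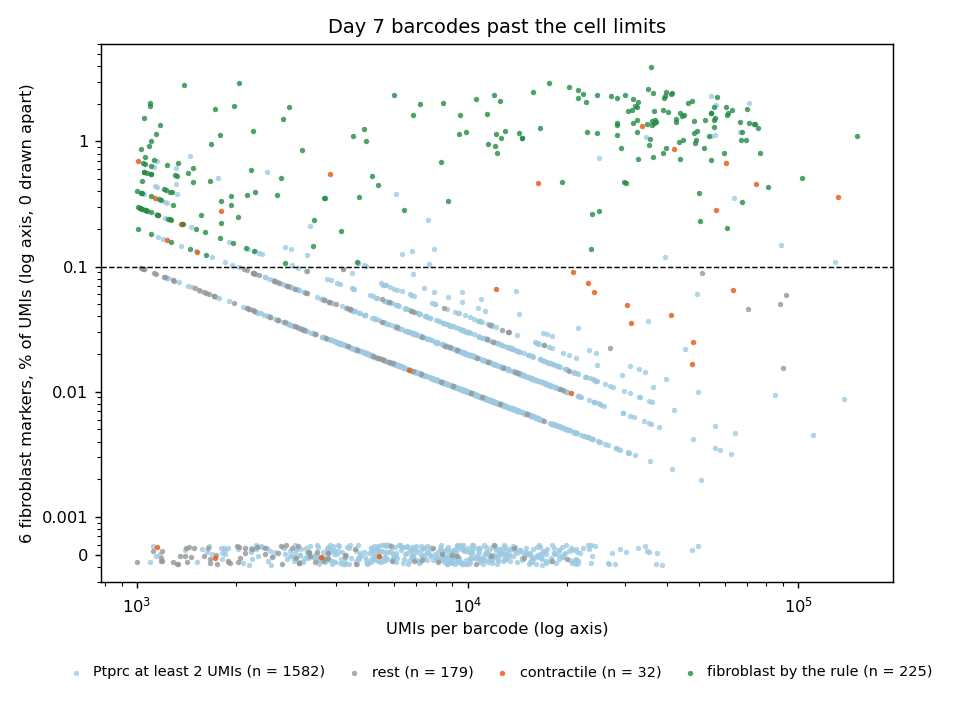
Each point is 1 of the 2018 kept day 7 barcodes, with its UMI count (log axis) against the share of its UMIs from the 6 fibroblast genes (percent, log axis; barcodes at 0 are drawn on a separate strip). The 225 fibroblasts lie above the dashed line at 0.1% over the whole range of depth, and the 1582 leukocytes lie mostly below it.

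Barcodes on both sides of the limits of the rule were compared once, without a test. The 16 fibroblasts just inside the lower limit (0.1 to 0.2%) had a median of 1869.5 UMIs and Col1a1 at 1668 CPM. Their median for the leukocyte list was 0.945% of UMIs, with Cd74 at 2378 CPM. The 106 barcodes just outside, with some but under 0.1%, had Col1a1 at 1191 CPM, a leukocyte list median of 1.08% and Cd74 at 3574 CPM. Leukocyte RNA was thus present on both sides of this limit. At the contractile limit, the 25 fibroblasts with 0.25 to 0.5% smooth muscle genes had Col1a1 at 14148 CPM, and the 10 barcodes from 0.5 to 1% that otherwise met the rule had it at 5213 CPM. A further 55 barcodes met all limits except that of Ptprc. Their median was 2383 UMIs and their Col1a1 level 9732 CPM.

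The first comparison addressed which genes the day 7 fibroblasts express against the other 1793 kept cells of the same library, which were mainly leukocytes. Since marker genes chose the cells, genes that go along with those markers differ in part by that choice, and the values are a description. Levels are CPM of the summed UMIs of each group and folds are ratios of CPM. For counts of genes, 10 CPM were added to both levels, genes needed 20 UMIs over both groups, and a gene was counted at a 4-fold difference. On that scale 474 of 13476 genes (3.52%) were higher and 438 (3.25%) lower in the fibroblasts, and the median log2 ratio of all genes was -0.02. By sign alone, 48.8% of all genes were higher in the fibroblasts.

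Fibrillar collagen transcripts were abundant in the fibroblasts. The 7 fibrillar collagen genes summed to 62445 CPM in the fibroblasts and 2833 CPM in the other cells, and all 7 were at least 4-fold higher (median log2 ratio 4.02, or 4.75 without shared barcodes). Col3a1, a chain of type III collagen, stood at 24596 CPM (24459 to 24733) against 944 CPM, a ratio of 26.0 (25.7 to 26.5). Col1a1 stood at 17956 CPM (17839 to 18074) against 859 CPM, a ratio of 20.9 (20.6 to 21.3), and Col1a2 at 16715 CPM against 810.5 CPM. Col1a1 encodes the α1 chain and Col1a2 the α2 chain of type I collagen. The fibroblasts, with 20.0% of the library's UMIs, held 86.7% of its Col3a1 UMIs and 83.9% of its Col1a1 UMIs. In the leukocytes Col1a1 was at 590.1 CPM. Leukocytes, and so the other cells, include 55 barcodes that met every limit of the rule except that of Ptprc. These 55 held 796716 of the 18019740 leukocyte UMIs, with Col1a1 at 9732 CPM and Col3a1 at 12351 CPM. They raise both levels in the comparison cells, and how much of the rest is RNA free in the suspension was not tested.

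The level of type I and III collagen varied moderately between cells. In the 140 fibroblasts of at least 3000 UMIs, the quartiles of Col1a1 were 10817, 18357 and 25491 CPM, and those of Col3a1 were 16619, 24814 and 34155 CPM. The minor fibrillar chains Col5a1 (1237 CPM) and Col5a2 (1789.6 CPM) were found in the same cells at quartiles of 727, 1076 and 1627 CPM and of 1098, 1680.5 and 2247 CPM. Col11a1, which in adult tissue is mostly a cartilage chain, was at 49.5 CPM, and a single cell gave 26.1% of its UMIs.

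Genes that process collagen followed the same pattern. Of 23 genes for prolyl and lysyl hydroxylation, folding, propeptide cleavage and crosslinking, 17 were at least 4-fold higher in fibroblasts than in the other cells and none lower (median log2 ratio 2.64). Lox, the crosslinking lysyl oxidase, was at 1258 CPM, 15.3-fold (14.5 to 16.1) above the other cells. Plod2, the lysyl hydroxylase that favours stable pyridinoline crosslinks, was at 517 CPM against 43.2 CPM. The collagen chaperone Serpinh1 (2553 CPM) was 10.4-fold higher, and the procollagen C-proteinase Bmp1 (345 CPM) 17.1-fold higher. Of the 14 other collagens, which include the network, beaded-filament and basement membrane types, 11 were 4-fold higher (median 3.01). Col6a1 was at 1113 CPM and Col14a1, a fibril-associated collagen, at 849 CPM. Of 28 genes of the secretory pathway and its chaperones 6 were 4-fold higher (median 1.14), among them Kdelr3 at 258 CPM against 22.1 CPM and Fkbp14 at 84.7 CPM against 5.96 CPM.

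The elastic fibre list was led by tropoelastin. Of its 14 genes 13 were at least 4-fold higher in the fibroblasts (median log2 ratio 3.29). Eln stood at 14159.5 CPM (14056 to 14264) against 869 CPM in the other cells, and its level differed far more between single fibroblasts than that of collagen did. Among the 140 deeper cells its quartiles were 645, 7283 and 25798 CPM. The microfibril gene Fbn1 (1194 CPM), the elastogenic Fbln5 (1239 CPM) and the microfibril-associated Mfap4 (1589 CPM) had ratios of 17.0, 16.6 and 21.9. Emilin2 was the exception, at 43.5 CPM against 92.5 CPM.

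Of 21 matricellular and adhesive glycoproteins 16 were 4-fold higher and 1 was 4-fold lower (median 3.04). Sparc, a collagen-binding protein, was at 17191 CPM with a ratio of 19.2 (18.9 to 19.5). Postn, or periostin, was at 2389 CPM with a ratio of 19.8 (18.9 to 20.7). Cthrc1, a secreted protein of activated fibroblasts, was at 1539 CPM with a ratio of 21.8 (20.6 to 23.1). Fibronectin was spread more widely over the library, since Fn1 at 2514 CPM was 5.16-fold higher (5.03 to 5.30) and 56.3% of its UMIs lay in fibroblasts. Tgfbi was the gene at least 4-fold lower, at 165 CPM against 814 CPM. Osteopontin (Spp1) was at 325 CPM against 527 CPM, with 27.2% of its fibroblast UMIs from 1 cell.

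Besides the proteoglycans of the rule, 7 of 8 small leucine-rich proteoglycans were 4-fold higher (median 3.36). Biglycan (Bgn) stood at 4740.0 CPM and asporin (Aspn) at 912 CPM, with a ratio of 37.8 (34.5 to 41.6) for the latter. Basement membrane genes were higher in all 12 cases and 4-fold so in 7 (median 2.46), among them Lama2 at 96.4 CPM against 4.62 CPM. Of 22 proteases and inhibitors 13 were 4-fold higher and 1 lower (median 2.14). The gelatinase Mmp2 was at 857 CPM against 44.4 CPM, and the collagenolytic membrane protease Mmp14 at 442 CPM against 102 CPM. Mmp9, the gelatinase of myeloid cells, was at 2.58 CPM against 43.8 CPM. The inhibitors Timp1, Timp2 and Timp3 were at 997, 1367 and 1239 CPM in the fibroblasts.

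Secreted signals were divided between fibroblasts and the other kept cells by family member. Of the TGF-beta ligands, Tgfb3 was at 177 CPM and 86.6% of its UMIs in the library lay in the fibroblasts. Tgfb2 was at 144 CPM with 58.3% there, whereas Tgfb1 was at 35.4 CPM against 225 CPM in the other cells, with 3.78% in fibroblasts. Of 17 genes of the TGF-beta axis 8 were 4-fold higher and 1, Tgfb1, was 4-fold lower (median 1.65). In the PDGF and FGF axis 4 of 11 genes were 4-fold higher (median 1.33). The receptor Pdgfrb was at 262 CPM against 18.0 CPM, and the ligand Pdgfa at 149 CPM against 53.6 CPM. Pdgfb, a ligand made by endothelial and myeloid cells, was at 5.97 CPM against 50.4 CPM.

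Wnt ligands and secreted Wnt antagonists were among the genes with the largest shares in fibroblasts. Wnt2 had 95.3% of its UMIs there and Wnt5a 90.8%. The secreted frizzled-related proteins Sfrp2 (2684 CPM) and Sfrp4 (626 CPM) were 25.3-fold and 34.8-fold higher than in the other cells. Axin2, a common target of canonical Wnt signalling, was at 2.19 CPM against 2.93 CPM, and Lef1 had 2 UMIs. In all, 8 of 18 Wnt genes were 4-fold higher (median 1.58). Of 15 BMP genes 5 were 4-fold higher and 1, Id2, lower (median 1.29), with the secreted follistatin-like Fstl1 at 3537 CPM against 226 CPM. Of 10 genes of the IGF axis 6 were 4-fold higher (median 2.75). Igf1 itself stood at 1021 CPM, 17.5-fold above the other cells, and the binding proteins Igfbp4 and Igfbp7 at 1801 and 3144 CPM.

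Inflammatory mediators were divided. Of 20 genes 4 were 4-fold higher and 2 were 4-fold lower, the median log2 ratio was 0.45, and the summed level was 2388 CPM against 3108 CPM in the other cells. Il33, an alarmin of stromal cells, was at 159 CPM and 91.7% of its UMIs lay in fibroblasts. Cxcl12, which retains CXCR4-bearing cells, was at 651 CPM with 69.2% in fibroblasts. The monocyte chemokine Ccl2 was at 488 CPM against 357 CPM, but its UMIs came from 61 fibroblasts, and 1 of them gave 37.3%. Without the 29 shared barcodes, the level of Ccl2 was 144 CPM, that of Cxcl12 was 315 CPM and that of Saa3 was 201 CPM. The neutrophil chemokine Cxcl2 was at 307 CPM against 1768 CPM, with 33.4% from 1 cell. In 50 of the shallow cells with leukocyte RNA it stood at 10925 CPM. Of 13 acute-phase and complement genes 11 were 4-fold higher (median 2.84), among them the C1 inhibitor gene Serping1 at 796 CPM against 33.6 CPM and C3 at 476 CPM against 52.9 CPM. The serum amyloid gene Saa3 was at 550.2 CPM against 61.1 CPM. Its UMIs came from 25 fibroblasts, and 34.7% from 1 of them.

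**Figure D2:**
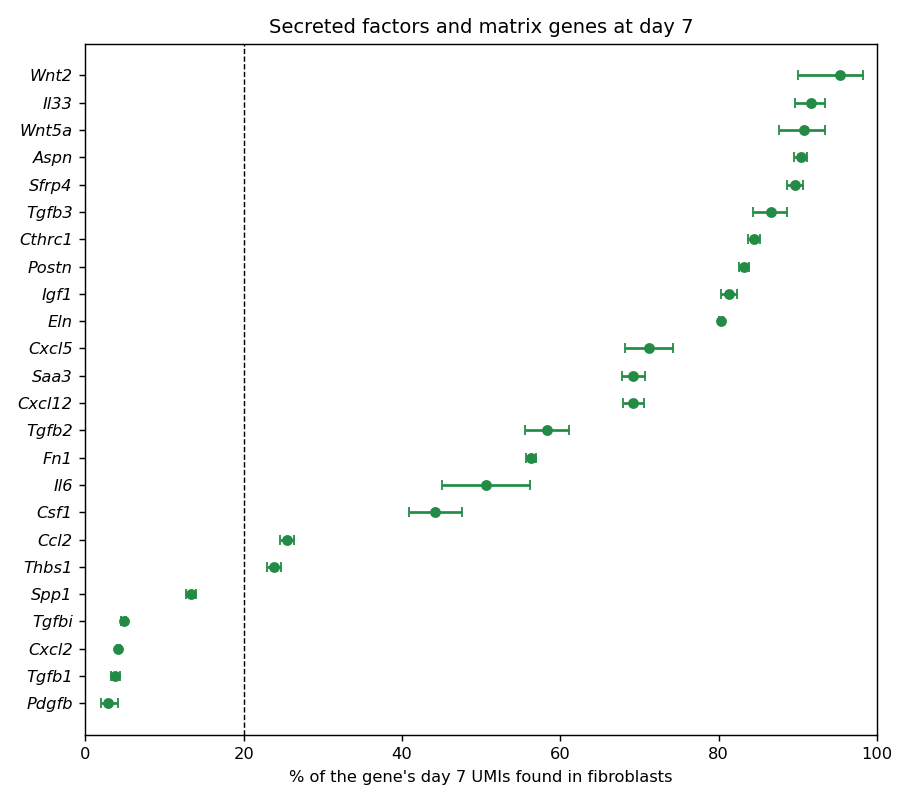
For 24 secreted matrix and signalling genes, the point gives the percent of the gene's day 7 UMIs that lay in the 225 fibroblasts, with its 95% exact binomial interval. The dashed line marks 20.0%, the fibroblasts' share of all UMIs, and Wnt2, Il33, Wnt5a and Aspn lie above 90% while Tgfb1, Pdgfb, Tgfbi and Cxcl2 lie under 5%.

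Among 31 mesenchymal transcription factors 11 were 4-fold higher (median 1.55). Prrx1 (262 CPM), Twist1 (77.0 CPM) and Osr1 (128 CPM), regulators of connective tissue lineages, were 12.8-fold, 12.2-fold and 13.4-fold higher than in the other cells. Runx1, known from blood cells and from activated mesenchyme, was at 187 CPM against 217 CPM. Klf4 was at 221 CPM against 235 CPM and Cebpb at 321 CPM against 799.6 CPM. Of 17 adventitial progenitor genes 9 were 4-fold higher (median 2.12), and of 17 resident fibroblast genes 12 (median 2.46). Of 11 cartilage and tendon genes 5 were 4-fold higher (median 1.67), with Comp, a pentameric matrix protein, at 191 CPM against 7.45 CPM. The paper proposes its SEM cells as a possible modulated smooth muscle state, and states that their origin is undetermined without lineage tracing. That cluster appeared on day 7 and was at first annotated as fibroblasts. Whether such cells are among the fibroblasts described here was not tested. Of the 5 genes the study names for SEM cells, Col1a1, Col1a2 and Fn1 were 4-fold higher and Lgals3 was 4-fold lower, at 75.2 CPM against 1148 CPM. These comparison cells were mainly leukocytes, whereas the paper showed these genes among non-immune cells. Against the contractile cells of day 7, 4 of the 5 genes were higher and 1 was lower, none of them 4-fold (median 0.73).

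The genes lowest in the fibroblasts are known from leukocytes. The 12 lowest ratios were those of Cd74, Cd52, Lyz2, H2-Eb1, H2-Aa, C1qa, Fcer1g, Ctss, Tyrobp, H2-Ab1, C1qb and C1qc. Cd74, the invariant chain of MHC class II, stood at 121 CPM (111 to 131) against 10192 CPM. Lyz2, the lysozyme of myeloid cells, stood at 76.0 CPM against 5277 CPM. Both differences follow in part from the limit on Ptprc. Several lists were also on the lower side with smaller differences. The median log2 ratio was -1.13 for 16 interferon and MHC class I genes (3 of them 4-fold lower), -0.80 for 17 immediate early genes (1 of them 4-fold higher), -0.37 for 17 glycolysis and hypoxia genes and -0.21 for 24 proliferation genes, the last 2 lists without any gene past 4-fold. B2m was at 1085 CPM against 2275 CPM and Gapdh at 704 CPM against 1227 CPM.

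Against leukocytes alone the pattern was the same in kind, with 580 of 13306 genes (4.36%) 4-fold higher and 476 (3.58%) lower. Fibrillar collagens had a median of 4.42, elastic fibre genes of 3.92 and matricellular genes of 3.46. The comparison with the 32 contractile cells was closer. Against these, 78 of 10940 genes (0.713%) were 4-fold higher in the fibroblasts and 77 (0.704%) lower, and the small number of contractile cells (811075 UMIs) limits the precision. Without shared barcodes the counts were 158 and 146. By sign alone, 50.0% of all genes were higher in the fibroblasts than in contractile cells.

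Contractile cells of day 7 also expressed matrix genes. The fibrillar collagens summed to 62445 CPM in fibroblasts and 19974 CPM in contractile cells, the elastic fibre genes to 20993 and 11018 CPM, and the basement membrane genes to 1719 and 1626 CPM. The contractile class was mixed, and its values here are for all its cells together. In its 16 cells with the fibroblast genes under 0.1% of UMIs, fibrillar collagens summed to 12703 CPM. The others had the fibroblast genes at 0.1% or more. Fibrillar collagens summed to 17313 CPM in the 10 of them with 0.5 to 1% smooth muscle genes, and to 29251 CPM in the 6 with more. All 7 fibrillar collagens were higher in fibroblasts (median log2 ratio 1.38), but only Col3a1 was at least 4-fold so, with a ratio of 4.49 (4.36 to 4.63). Fn1 was at 2514 CPM in fibroblasts and 2445 CPM in contractile cells, a ratio of 1.03 (0.981 to 1.08). Lox and Serpinh1 had ratios of 1.57 and 1.12. The 16 contractile genes outside the rule were all lower in the fibroblasts, 9 of them 4-fold (median -2.24), which follows in part from the limit on contractile genes. Cnn1, which encodes calponin, was at 3.98 CPM against 455 CPM. Itga8 (14.7 against 694 CPM) and Mylk (24.9 against 552 CPM) were also among the 12 lowest, as was the Wnt antagonist Sost (1.59 against 222 CPM).

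Of the lists outside the rule, the adventitial progenitor list had the highest median against contractile cells, and that of the acute-phase and complement list was 1.66. Of the 17 adventitial progenitor genes 8 were 4-fold higher (median 1.70), as were 4 of 16 resident fibroblast genes (median 0.96). Clec3b was at 325 CPM against 2.47 CPM. Pi16 was at 679 CPM against 33.3 CPM, a ratio of 20.4 (14.0 to 31.0), and the sialomucin Cd34, at 327 CPM, was 20.4-fold higher. Ly6a, or Sca-1, was at 886 CPM against 55.5 CPM. Other genes among the 12 highest were Igfbp5, Sfrp4, Ly6c1, C1qtnf3 and Slfn5, together with Ptn, Rsad2 and Saa3, whose UMIs came from few cells: 1 cell gave 65.0% of the Ptn UMIs and 95.4% of the Rsad2 UMIs. The inflammatory list had a median of 1.39 with 2 of 18 genes 4-fold higher. Proliferation genes were lower in the fibroblasts for all 24 genes (median -0.87, none 4-fold), at 542 CPM in sum against 1240.3 CPM. The 6 contractile cells with smooth muscle genes at 1% or more and the fibroblast genes at 0.1% or more stood at 2599.9 CPM for the proliferation sum, and they held 328090 of the 811075 contractile UMIs. The 10 contractile cells with 0.5 to 1% smooth muscle genes and the fibroblast genes at 0.1% or more stood at 680 CPM. The 16 with the fibroblast genes under 0.1% stood at 220 CPM, below the level of the fibroblasts.

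**Figure D3:**
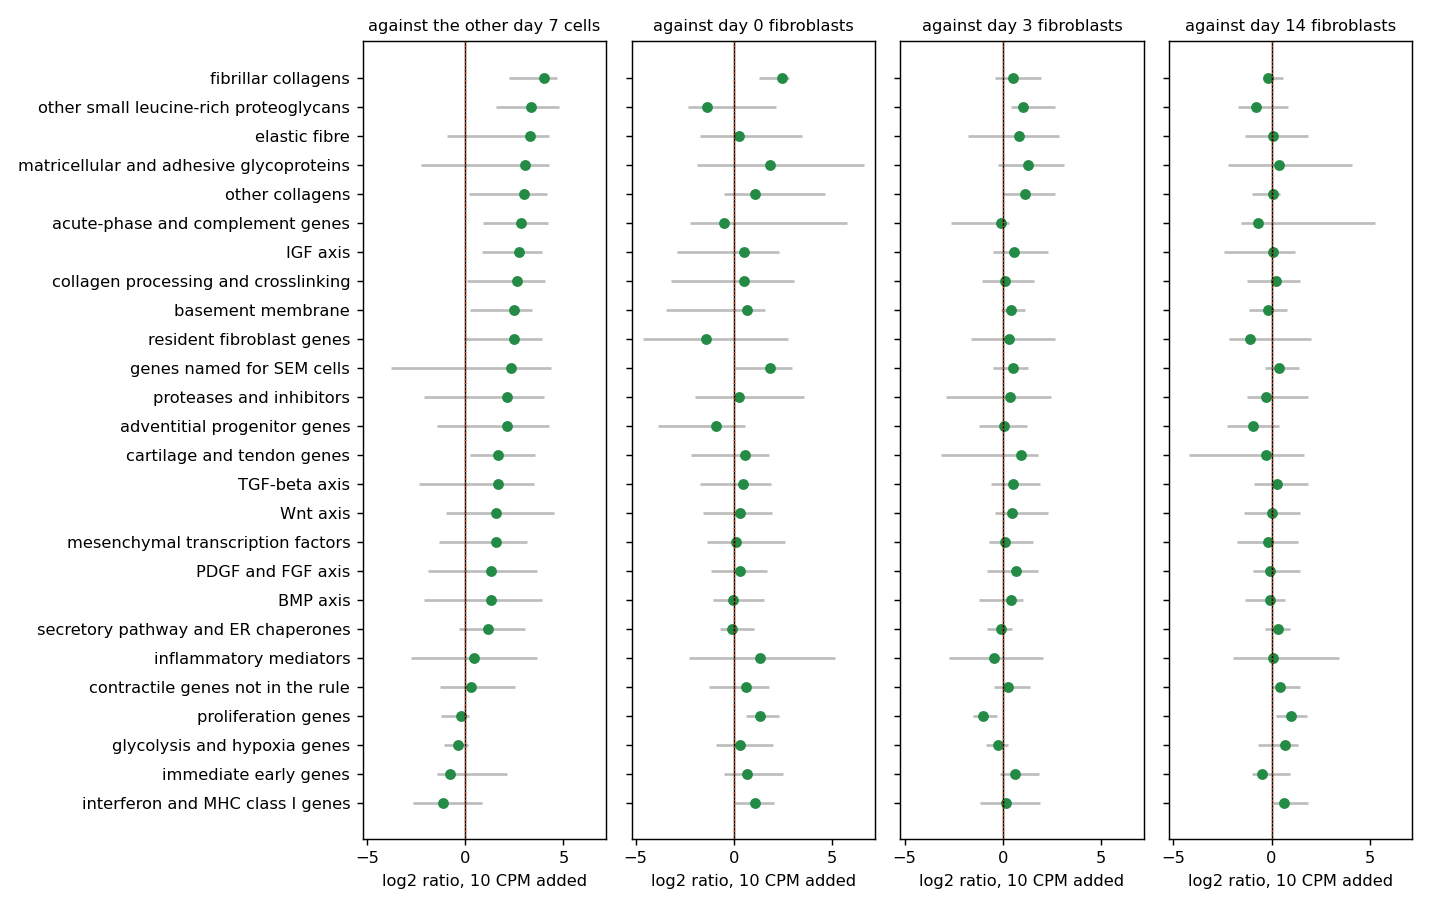
For 26 gene lists, the dot gives the median log2 ratio (10 CPM added to both levels) of day 7 fibroblasts against the other day 7 cells, and against the fibroblasts of days 0, 3 and 14. The grey line spans the lowest to the highest gene of a list and the dotted line is the median of all genes. Matrix lists are highest against the other day 7 cells, and the adventitial list lies below 0 against days 0 and 14, although its median against day 0 was 0.28 without shared barcodes.

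The fibroblasts of day 7 were next compared with those of the other days, chosen by the same rule: 212 cells at day 0 (85.1% of kept barcodes), 160 at day 3 (13.4%) and 492 at day 14 (55.9%). These 3 comparisons share the day 7 library. By sign alone, 50.3%, 55.1% and 51.2% of all genes compared were higher at day 7 than at days 0, 3 and 14. Leukocyte markers summed to 65.4, 176 and 114 CPM in the fibroblasts of days 0, 3 and 14, pericyte markers to 609.5, 429.7 and 469 CPM, and endothelial markers to 59.1, 12.4 and 12.7 CPM, and their part in the differences was not tested. The median depth was 10106.5, 24850.0, 12129 and 18773.5 UMIs at days 0, 3, 7 and 14.

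Against day 0, 104 of 11293 genes (0.921%) were 4-fold higher at day 7 and 69 (0.611%) lower. The fibrillar collagens summed to 16071 CPM at day 0 and 62445 CPM at day 7, and 5 of the 7 genes were 4-fold higher (median log2 ratio 2.46). Col3a1 was 6.87-fold higher (6.72 to 7.03) and Col1a1 3.58-fold higher (3.51 to 3.65). Of 21 matricellular genes 9 were 4-fold higher and none lower (median 1.81). Cthrc1 stood at 5.86 CPM at day 0 and 1539 CPM at day 7, a ratio of 263 (153 to 493). Postn stood at 177 and 2389 CPM, a ratio of 13.5 (12.2 to 14.9). Tnc, or tenascin-C, had no UMI at day 0 and 210.2 CPM at day 7, and was at least 155-fold higher when the day 0 level was set at the 3 counts that a count of 0 allows. Fn1 was 7.83-fold, Lox 6.77-fold, Plod2 5.54-fold and Eln 7.30-fold higher. Of the 5 SEM genes Fn1 and Lgals3 were 4-fold higher (median 1.84). Without shared barcodes the ratios were 7.27 for Eln, 16.5 for Postn and 3.17 for Col1a1, and they moved most for Fn1, to 21.9, and for Cthrc1, to 539.8.

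Other matrix lists differed less from day 0 or in the other direction. Of 8 small leucine-rich proteoglycans outside the rule, 6 were lower at day 7 (median -1.38), among them Ogn at 460.1 CPM against 1399 CPM, while Aspn was 4.51-fold higher and Bgn 1.61-fold higher. The elastic fibre list had a median of 0.27, with Fbln1 at 484 CPM against 1660.4 CPM. Collagen processing genes had a median of 0.51 (3 of 23 higher, 1 lower) and basement membrane genes of 0.68 (1 of 12 lower). Proteases and inhibitors had a median of 0.25, with Mmp14 at 442 CPM against 76.6 CPM and Mmp3 at 209 CPM against 613 CPM. Of 28 secretory and chaperone genes none was past 4-fold (median -0.11).

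With all barcodes kept, genes of the uninjured adventitia were lower at day 7. Of 17 adventitial progenitor genes 16 were lower and 5 of them 4-fold, with a sum of 4477 CPM against 20405 CPM (median -0.92). Gsn, the actin-severing gelsolin, stood at 720.4 CPM against 10476 CPM, 14.5-fold lower. Pi16 was 4.46-fold and Clec3b 6.89-fold lower. Of 17 resident fibroblast genes 7 were 4-fold lower and 1 higher (median -1.45). Among the 12 lowest ratios were those of the retinol carrier Rbp4 (44.5 against 1359.7 CPM), the complement component C7 (1.19 against 227 CPM), the transporter Abca8a (49.9 against 714 CPM) and the tissue factor gene F3 (38.0 against 521 CPM). The insulin-like growth factor binding proteins Igfbp4 and Igfbp5 were 2.98-fold and 7.88-fold lower. The adventitial result depends on shared barcodes: 101 of the 212 day 0 fibroblasts shared theirs with day 3, and with every shared barcode left out the median of the list was 0.28, against 2.11 for the matricellular list. Without shared barcodes Gsn was 9.99-fold, Clec3b 5.23-fold, Igfbp5 2.88-fold and Pi16 2.17-fold lower at day 7.

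Inflammatory, acute-phase and proliferation genes were also set against day 0. Of 18 inflammatory genes 7 were 4-fold higher and 1 lower (median 1.33). Ccl2 stood at 4.06 CPM at day 0 and 488 CPM at day 7, and Ccl7 at 2.25 and 260.1 CPM. Among cells of at least 3000 UMIs, Ccl2 was found in 1 of 176 at day 0 and 42 of 140 at day 7, with a median of 0 CPM at both days. Without shared barcodes Ccl2 was at 0 CPM at day 0 and 144 CPM at day 7. The acute-phase and complement list was split, with 3 of 13 genes 4-fold higher (Saa3, Lcn2 and Hp) and 1 lower, and a median of -0.49. All 24 proliferation genes were higher (median 1.30, 3 of them 4-fold), and so were all 16 interferon and MHC class I genes (median 1.09, 1 of them 4-fold) and 16 of 17 immediate early genes (median 0.67). Transcription factors had a median of 0.10 with 2 of 31 past 4-fold, Runx1 (32.0 against 187 CPM) and Sox4 (16.7 against 151 CPM). The TGF-beta, PDGF and FGF, Wnt and BMP lists had no gene past 4-fold and medians of 0.45, 0.30, 0.30 and -0.07, and the IGF list had 1 gene higher and 1 lower (median 0.51).

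Against day 3, differences were fewer, with 34 of 11700 genes (0.291%) 4-fold higher at day 7 and 5 (0.0427%) lower. Matrix lists held several of the higher genes. Of 14 elastic fibre genes 4 were 4-fold higher (median 0.83), and Eln stood at 14159.5 CPM against 1914 CPM, a ratio of 7.40 (7.25 to 7.55). Mfap4 and Fbln5 were 6.38-fold and 4.24-fold higher. Of 21 matricellular genes 5 were 4-fold higher (median 1.27), with Postn at 4.73-fold and Cthrc1 at 2.72-fold. Of the small leucine-rich proteoglycans, Aspn was 6.76-fold and Fmod 9.32-fold higher (median of the list 1.01). Fibrillar collagens were closer to their day 3 level, with a median of 0.53 and Col1a1 at 17956 CPM against 12691 CPM. The growth factor midkine (Mdk, 9.03-fold), the matrix carboxypeptidase-like Cpxm2 (30.6-fold) and the network collagen Col8a1 (7.23-fold) were also among the 12 highest, with Ptn, Cxcl14, Rsad2 and Thbs1, in which 1 cell gave 65.0%, 69.5%, 95.4% and 24.2% of the UMIs.

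The 5 genes 4-fold lower at day 7 than at day 3 were Prg4, Mmp3, Ccl8, Saa3 and Serpinb1a. Saa3 stood at 3460.3 CPM at day 3 and 550.2 CPM at day 7. The stromelysin gene Mmp3 stood at 1603 and 209 CPM and the lubricin gene Prg4 at 514 and 50.3 CPM. The inhibitor Timp1 was 3.06-fold lower and the metallothionein Mt2 3.07-fold lower. Of 20 inflammatory genes 15 were lower (median -0.46, 1 past 4-fold in each direction), and all 24 proliferation genes were lower (median -1.001, none 4-fold). With every shared barcode left out, the inflammatory median was -0.82 and 21 genes were 4-fold lower. The ratio of Eln to its day 3 level was then 4.70, that of Tnc 11.0 instead of 5.25, and Saa3 was 12.6-fold lower instead of 6.29-fold. The adventitial list stood near its day 3 level (median 0.08, none of 17 past 4-fold), and its sign depended on the setting. Of the signalling lists, Wnt genes had 2 of 16 and IGF genes 1 of 10 past 4-fold, all higher at day 7.

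Against day 14, 23 of 12183 genes (0.189%) were 4-fold higher at day 7 and 20 (0.164%) lower. With CPM averaged over cells the counts were 135 and 13, with 1 CPM added 186 and 90, and without shared barcodes 14 and 14. Fibrillar collagens had a median log2 ratio of -0.17 that came to 0.067 without shared barcodes, and Col1a1 was at 17956 CPM against 20496 CPM. Eln was 3.23-fold (3.19 to 3.27) higher at day 7, and Cthrc1 (2.13-fold), Tnc (4.04-fold) and Plod2 (2.82-fold) were also higher. Adventitial genes were lower at day 7 in 15 of 17 cases (median -0.94, 1 of them, Gsn, 4-fold) and resident genes in 14 of 18 (median -1.11, 2 of them 4-fold), while Cxcl14, with 69.5% of its UMIs from 1 cell, was 4-fold higher. Gsn was at 720.4 CPM against 3461 CPM, Clec3b at 325 CPM against 1291 CPM and Igfbp5 at 189 CPM against 1072 CPM. The cartilage and tendon list had 3 of 15 genes 4-fold lower (median -0.30). Its genes Col2a1 and Chad were at 1.59 and 0.398 CPM against 199.8 and 23.9 CPM, and Ibsp had no UMI at day 7 against 48.2 CPM. Apoe, the apolipoprotein E gene, was 5.65-fold lower at day 7.

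The 12 genes highest against day 14 were Saa3, Lcn2, Spp1, Rsad2, Cxcl2, Cxcl5, Ccl2, Cxcl10, Hist1h2ap, Hp, H2-Ab1 and Kcnj15. In 50 of the day 7 cells with leukocyte RNA Cxcl2 stood at 10925 CPM. H2-Ab1 was among the 12 genes lowest against the other day 7 cells. At day 14 only 5 fibroblasts reached the 0.5% limit of the leukocyte list. With such cells left out, 19 genes were 4-fold higher at day 7 instead of 23. The part of these cells in each gene was not tested. Of 19 inflammatory genes 5 were 4-fold higher, with a list median of 0.07. Saa3 was at 4.6 CPM at day 14 and 550.2 CPM at day 7. Lcn2, a neutrophil-associated iron-binding protein, was at 2.24 and 352 CPM, and Ccl2 at 52.4 and 488 CPM. Without shared barcodes Ccl2 was 2.75-fold and Saa3 56.0-fold above day 14. At day 7, a single cell gave 34.7% of the Saa3 UMIs, 42.2% of the Lcn2 UMIs and 35.4% of the Cxcl5 UMIs. As given above, a single cell gave nearly all Rsad2 UMIs. The potassium channel gene Kcnj15 was spread over more cells: its 139.6 CPM came from 82 fibroblasts, with 5.56% from 1 cell, and was 6.88-fold above day 14.

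Levels were also taken per cell, so that deep cells did not weigh more. Among cells of at least 3000 UMIs (176, 110, 140 and 442 at days 0, 3, 7 and 14), the median of Col1a1 was 3806, 11971, 18357 and 17712 CPM. The median of Eln was 977, 379, 7283 and 1312 CPM, with upper quartiles of 3043, 2800.0, 25798 and 4146 CPM. By cell, Eln was highest at day 7, whereas Col1a1 was near its day 14 median. Postn had medians of 0, 239, 1785 and 1166 CPM and Cthrc1 of 0, 263, 1226 and 274 CPM. The medians of Bgn were 2989, 2380, 4677 and 2526 CPM, and those of Igf1 306, 292, 927 and 503 CPM. Gsn had medians of 8572, 413, 349 and 2648 CPM. Runx1 had medians of 0, 47.5, 126 and 63.6 CPM. These cells had median depths of 11384.5, 46318.5, 33855 and 19938.5 UMIs, so that a median of 0 at day 0 rests on the shallowest cells.

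**Figure D4:**
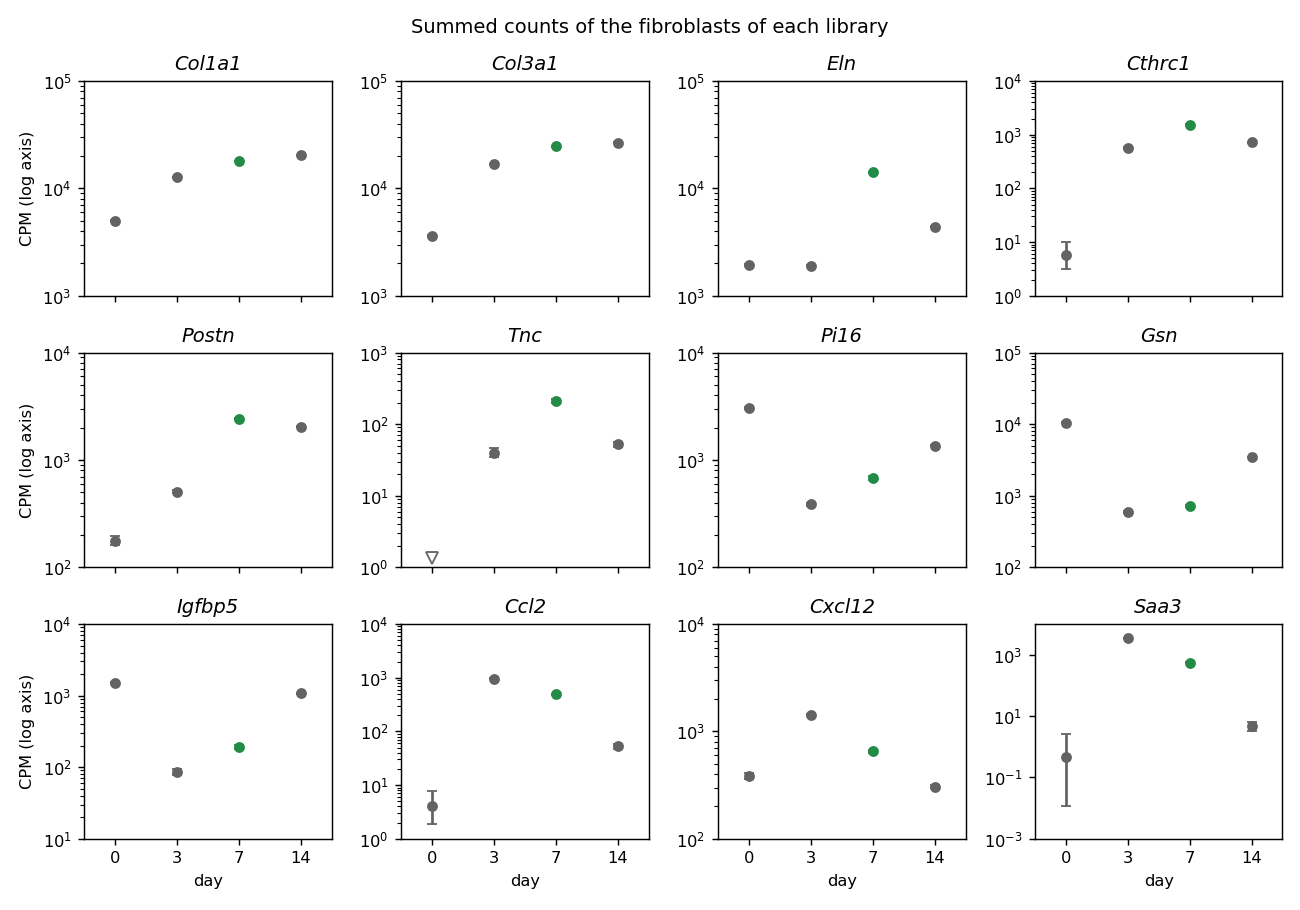
The level of 12 genes in the fibroblasts of each day is plotted as CPM of summed UMIs on a log axis, with 95% Poisson intervals and day 7 in green, and an open triangle stands for a count of 0 set at 3 counts. Eln, Cthrc1 and Tnc are highest at day 7, Pi16, Gsn and Igfbp5 are highest at day 0 (Igfbp5 at day 14 once shared barcodes are left out), and Saa3, Ccl2 and Cxcl12 are highest at day 3.

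Fibroblasts of day 7 were finally divided among themselves. Clustering without the genes of the lists gave 4 sub-clusters, S0 to S3, and the number of sub-clusters depends on the resolution (3 at 0.3, 6 at 0.8). They are named by number only. S2, with 70 cells, a median of 39207.5 UMIs and 55.3% of the fibroblast UMIs, was led by Ptn, C1qtnf3, Aspn, Itm2a and Lrrc15. As given above, most Ptn UMIs came from a single cell. In S2 the fibrillar collagen sum was 73601 CPM, the Cthrc1 level 2092 CPM and the Aspn level 1419 CPM. S0, with 48 cells, had Ctla2a, F3, Tcf21 and Olr1 among its leading genes. It had the highest adventitial sum, 6683 CPM, with Pi16 at 1156 CPM, and the lowest inflammatory sum, 599 CPM. The inflammatory sum was 2865, 1603 and 6347 CPM in S1, S2 and S3, and 587 CPM in the fibroblasts of day 0. S1, with 32 cells of a median of 3554 UMIs, was led by Thbs4, Apod, Irf1, Cemip and Gm26917, although 1 cell gave 71.6% of all Thbs4 UMIs. S1 had the highest elastic fibre sum, with Eln at 34447 CPM against 13689, 13975 and 9177 CPM in S0, S2 and S3, and the highest immediate early sum, 20136 CPM.

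S3 held 75 cells with a median of 1278 UMIs, and its cells differed in depth and leukocyte RNA. It was led by Rsad2, Hist1h2ap, Lcn2, Cxcl10 and Ube2c. As given above, a single cell gave nearly all Rsad2 UMIs, and a single cell gave a large part of the Lcn2 UMIs. Rsad2 and Lcn2 therefore do not describe S3 cells in general. Of the S3 cells 50 were barcodes with the leukocyte list at 0.5% or more, and these had a median of 1154.5 UMIs and Cd74 at 5154 CPM. Another 17 cells had at least 10000 UMIs, at a median of 50134, and held 886958 of the 966915 UMIs of S3. In these 17 cells Cd74 was at 87.9 CPM, fibrillar collagens summed to 29678 CPM, Cthrc1 was at 387 CPM and Pi16 at 115 CPM. Lcn2 was at 1834 CPM, and endothelial markers summed to 260.4 CPM. Inflammatory mediators summed to 5845 CPM in the 17 cells and to 13524 CPM in the 50 barcodes with leukocyte RNA. The remaining 8 cells had a median of 1332.5 UMIs. Over all of S3 the matrix Gla protein gene Mgp stood at 18285 CPM, against 5094, 3459.8 and 5486 CPM in S0, S1 and S2.

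Cycling was scored after thinning each cell to 1000 UMIs, with 2 or more UMIs of 24 proliferation genes counted as cycling. At day 7, 25 of 225 fibroblasts were cycling by this measure (11.1%, 95% interval 7.32 to 15.96), and without thinning 30.7%. Among the 112 cells with the fibroblast genes at 1% of UMIs or more it was 1.79%. The cycling cells had a median of 0.483% for these genes, and the other fibroblasts 1.11%. Of the 32 contractile cells 2 were cycling (6.25%, 0.766 to 20.8), and without thinning 13 (40.6%). In the fibroblasts of days 0, 3 and 14 the thinned share was 1.89%, 16.3% and 0.407%. In neutrophils, which do not divide in tissue, it was 1 of 45 at day 7 (2.22%) and 0 of 126 at day 3, where 3 counts would be a share of 2.38%. The summed proliferation level was 31.1, 1342, 542 and 135 CPM in the fibroblasts of days 0, 3, 7 and 14, and 41.4 CPM in day 7 neutrophils. The median depths before thinning were 12129 UMIs in the fibroblasts and 3200 UMIs in the neutrophils of day 7. Of the 25 cycling cells 22 lay in S3 and none in S2, and 8 were among the 51 cells with leukocyte RNA. The clustering left out the 24 proliferation genes, but other genes of the cell cycle could still have shaped it. The place of cycling cells in S3 is thus no independent result. Among fibroblasts of at least 10000 UMIs 9 of 117 were cycling (7.69%, 3.58 to 14.1), and 8 of these lay in S3.

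**Figure D5:**
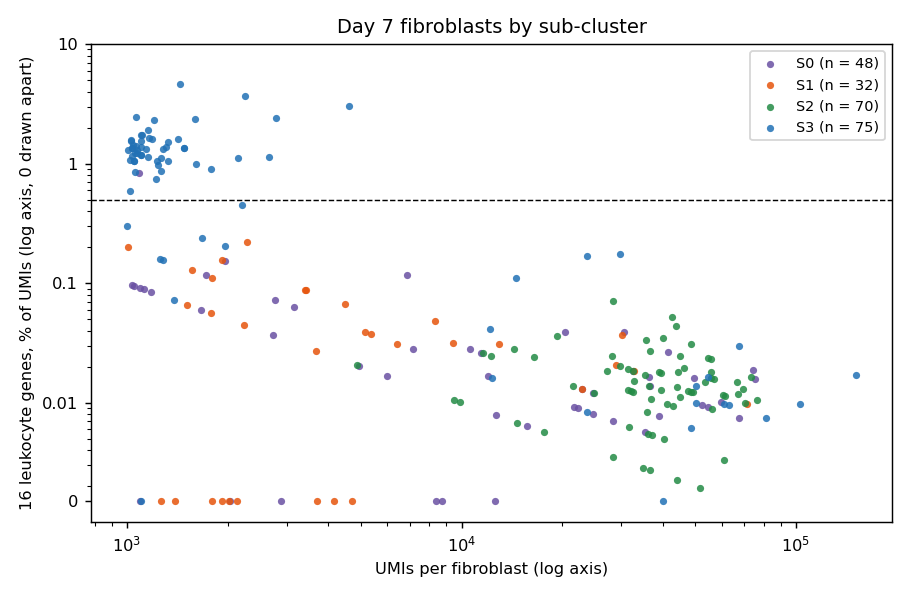
Each point is 1 of the 225 fibroblasts, with its UMI count (log axis) against the share of its UMIs from the 16 leukocyte markers (percent), coloured by sub-cluster S0 (48 cells), S1 (32), S2 (70) and S3 (75). The dashed line marks 0.5%, above which 50 of the 51 cells belong to S3, and all cells of S2 lie below it.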

How the data were processed

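Single-cell 3′ libraries of carotid arteries at days 0, 3, 7 and 14 were analysed from the deposited matrices, in which the authors gave unnormalised UMI counts for each gene in each barcode, made with Cell Ranger (3.0.2 per the file headers, another version in the methods text). The reference build is named as a human one, so no coordinates are given. All libraries list 31053 genes. Barcodes were kept and classed by the limits stated above. Counts were summed per class and scaled to CPM. With 1 library per day no test was made. CPM carry exact Poisson, ratios exact conditional binomial and shares exact binomial 95% intervals. Fibroblasts, gene lists, limits and alternatives were chosen with earlier results of these data known. Genes named are list members or the 12 highest and 12 lowest ratios of a comparison with 10 CPM added, and for sub-clusters the 5 highest ratios, leaving out the genes of the rule. Ccl19 and Aldoa, each with 2 identifiers, were left out. Doublets were scored with Scrublet (scanpy 1.11.5) at 0.8% per 1000 barcodes. Sub-clusters were Leiden clusters (resolution 0.5, 20 principal components, 15 neighbours, up to 2000 variable genes, without list genes). The comparison was tested on simulated data. Overlapping or near-identical genes were not checked. A few genes that met the naming rule are not reported here. Alternatives are given in the closing section.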

Additional observations from a re-analysis of the deposited data

How the results depend on the processing

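Of 256 values recomputed under other settings, 195 stayed within their limit, 56 moved beyond it and 5 turned direction. The log2 medians below are of lists. With the fibroblast genes at 1% of UMIs or more, 112 cells (5.55%) remained and the rest joined the other cells. Against the other cells the fibrillar median was then 3.11, the matricellular 2.70 and the inflammatory 0.32, the adventitial median against day 0 was -0.69, 11 genes were 4-fold lower than at day 3 with a matricellular median of 1.08, the fibrillar median against day 14 was 0.025 and the matricellular 0.48, and 1.79% were cycling. Leaving out cells with leukocyte RNA gave a share of 8.62%, and leaving out the highest doublet scores an inflammatory median of 0.28 against the other cells.

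With CPM averaged over cells, 194 genes were 4-fold lower than in the other cells, with medians of 4.28 (fibrillar) and 3.32 (matricellular). The genes 4-fold higher numbered 230 against contractile cells and 262, 130 and 135 against days 0, 3 and 14, and 13 were 4-fold lower than at day 3 and 13 than at day 14. The adventitial median was -0.48 against day 0 and -0.73 against day 3, the inflammatory -0.0029 against day 3 and 0.50 against day 14, the fibrillar -0.36 and the matricellular 0.41 against day 14. This mean gives shallow cells more weight, and the cause was not tested further.

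With 1 CPM added, 1226 genes were higher and 1131 lower than in the other cells, with medians of 4.19 (fibrillar), 3.77 (matricellular), 3.60 (adventitial) and 1.05 (inflammatory). The counts were 450 and 157 against contractile cells, 568 and 190 against day 0, 188 and 31 against day 3, and 186 and 90 against day 14. Against day 0 the medians were 2.60 (fibrillar), 2.97 (matricellular) and 2.08 (inflammatory).

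Removal of shared barcodes was chosen after seeing the data. Without any of them, the medians against the other cells were 4.75 (fibrillar), 3.64 (matricellular), 2.51 (adventitial) and 0.35 (inflammatory), and 158 genes were higher and 146 lower than in contractile cells. Against day 0 the matricellular median was 2.11 and the adventitial 0.28. Against day 3, 21 genes were lower, with medians of 0.64 (fibrillar), -0.12 (adventitial) and -0.82 (inflammatory). Against day 14, 14 genes were higher, with medians of 0.067 (fibrillar) and 0.50 (matricellular). Without thinning 30.7% were cycling. The splitting of S3 by depth and leukocyte RNA was also made after seeing the data. No paired analysis was possible because each day was 1 library, and for the same reason no replicate could be left out. Depth limits genes of low level most at day 0, where the fibroblasts held 2218141 UMIs.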

Other observations

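Lists that were not described in full above differed between days as follows. Of all genes compared, 51.2% were higher at day 7 than at day 14, and 55.1% were higher than at day 3. Contractile genes outside the rule were higher at day 7 than at day 14 in 16 of 16 cases, none of them 4-fold (median log2 ratio 0.41), while cells with more contractile RNA had been left out at both days by the same limit. Glycolysis and hypoxia genes had a median of 0.68 against day 14, with 11 of 16 higher, and of -0.25 against day 3. Immediate early genes, which also respond to tissue digestion, were higher than at day 3 in 15 of 17 cases (median 0.62) and lower than at day 14 in 14 of 17 (median -0.48). Fos stood at 1037 CPM at day 7, against 601, 449.9 and 2081 CPM at days 0, 3 and 14. All 24 proliferation genes and all 16 interferon and MHC class I genes were higher at day 7 than at day 14, with medians of 0.98 and 0.63 and no gene past 4-fold.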
